A study of Mus musculus with 12 samples.

Results

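Circular RNAs whose ends lie at least 50000 bp apart on the mouse genome were examined in 4 cell lines. A circRNA was taken when its row named 1 host gene and the distance from the first to the last base of its genomic interval was 50000 bp or more. The choice used coordinates and host names only, and no read count, though it was made with earlier results of these data known. Of 13474 circRNAs listed for the 4 lines, 736 met these conditions, and 712 of them had junction reads. The table of the mammary lines listed 422, all with reads, from 247 host genes. The table of the melanocyte lines listed 716, of which 507 had reads, from 272 host genes, and 209 had none.

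The mammary lines were 4T1, of breast cancer, and Eph4-ev, of breast epithelium; the melanocyte lines were B16F10, of melanoma, and Melan-a, of melanocytes. Each had 3 libraries and no stated treatment or genetic change. All 4 share the same preparation, in which total RNA was digested with RNase R, an exonuclease that removes linear RNA. Each lineage holds 1 tumour line and 1 other line, so no difference between the lines can be told apart from tumour state. Nothing in the labels says that the 3 libraries of a line come from separate cultures, so the p-values measure the spread between these libraries, which may be technical. Total junction reads ran from 15572 to 44625 in 4T1, from 50648 to 56649 in Eph4-ev, from 16697 to 20011 in B16F10 and from 25072 to 33557 in Melan-a. Of 13 melanocyte genes, 9 had circRNA reads in B16F10, 10 in Melan-a, 0 in 4T1 and 1 in Eph4-ev, with 186 to 257 reads per library in B16F10 and 143 to 324 in Melan-a. Of 10 epithelial genes, 5 had reads in 4T1 and 5 in Eph4-ev (20 to 63 and 71 to 100 reads per library), 0 in B16F10 and 1 in Melan-a. The 7 immune and 5 keratinocyte genes had 0 reads in every line. Of 9 mesenchymal genes, 0 had reads in 4T1, 1 in Eph4-ev, 1 in B16F10 and 2 in Melan-a. A circRNA level says little of a gene's mRNA, so this is a check of lineage only. In such bulk samples, fewer cells with a circRNA and fewer copies per cell cannot be told apart.

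CircRNAs form when the spliceosome joins the end of a downstream exon back to the start of an upstream exon. The introns between the joined exons are usually removed, so the genomic distance of a circle is set mostly by its introns and not by the RNA in it. Back-splicing is known to be favoured by long flanking introns and by inverted repeats in them, and circles often start at the second exon of a gene. The closed ring has no free end, which protects it from exonucleases. A read across the back-spliced junction is the mark that tells a circle from the linear transcript.

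The junctions of the circles on which the comparisons turn are shown, for some with that of the most abundant shorter circle at the same exon, since the pairs share one side of the junction and differ in the other. Each line gives the last 15 bases of the circle's last exon in lower case and, in capitals, the first 15 bases of its first exon, 5′ to 3′ on the strand of the gene. The bases come from GENCODE M21 transcripts on mm10.
Fto exons 2 to 8 (121090 bp span): ggagtggcatgccagAAACTGAGGCTCCTT
Fto exons 2 to 7 (83472 bp span): aagatggagagcatgAAACTGAGGCTCCTT
Zfp609 exons 2 to 3 (64520 bp span): aggaaacagaagatgCAATGATGTTGTCCA
Zfp609 exon 2 (874 bp span): gtcaagtctgaaaagCAATGATGTTGTCCA
Pvt1 exons 2 to 3 (68401 bp span): atttggaaaattgagGTCTGATTTTCTTAA
Pvt1 exon 2 (318 bp span): agctccctctaaaatGTCTGATTTTCTTAA
Med13l exons 2 to 4 (87639 bp span): gccagtcaacaaaagGCTGAACTCACAGGA
Med13l exons 2 to 3 (77765 bp span): caatctgttagaaagGCTGAACTCACAGGA
Med13l exon 2 (238 bp span): atcatgaactgcaggGCTGAACTCACAGGA
Tasp1 exons 2 to 8 (79893 bp span): caatcaagcgcaaagGTTGACTCCCTTTGC
Tasp1 exons 2 to 10 (110343 bp span): ctgtgagtacctcagGTTGACTCCCTTTGC
Tasp1 exons 2 to 4 (15406 bp span): ctggtggaacttgagGTTGACTCCCTTTGC
Ncoa2 exons 2 to 4 (64719 bp span): agatcaaagagcaagATTTTCCTCGCATCT
Ncoa2 exons 3 to 4 (3407 bp span): agatcaaagagcaagTTGCTGATATGTGTT
Gli3 exons 2 to 3 (70643 bp span): tggagcctcactaccGGATTCCTTTGAGAA
Rptor exons 3 to 4 (53891 bp span): tgggtcttcaacaagATCCTCTGTCTATGG
In Zfp609, Pvt1, Med13l and Tasp1 the long and the short circles share the capitals, that is the exon that accepts the back-splice, and differ in the exon that donates it, as do both long circles of Fto. In Ncoa2 they share the donating exon instead.

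By annotation, the RNA in these circles was short. Reads cover the junction only, so which exons lie between the ends was not observed. In the mammary table the median span was 67664 bp and the median length of the joined exons, 659.5 bases (quartiles 421 and 976.5). The other circRNAs with 1 host had a median span of 6992 bp and a median exon length of 450 bases. The melanocyte table gave 67395 bp with 750 bases for the long-span circles and 7925.5 bp with 484 bases for the others. A median long-span circle held 5 annotated exons in the mammary and 6 in the melanocyte table, against 3 in the others of either table.

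**Figure D1:**
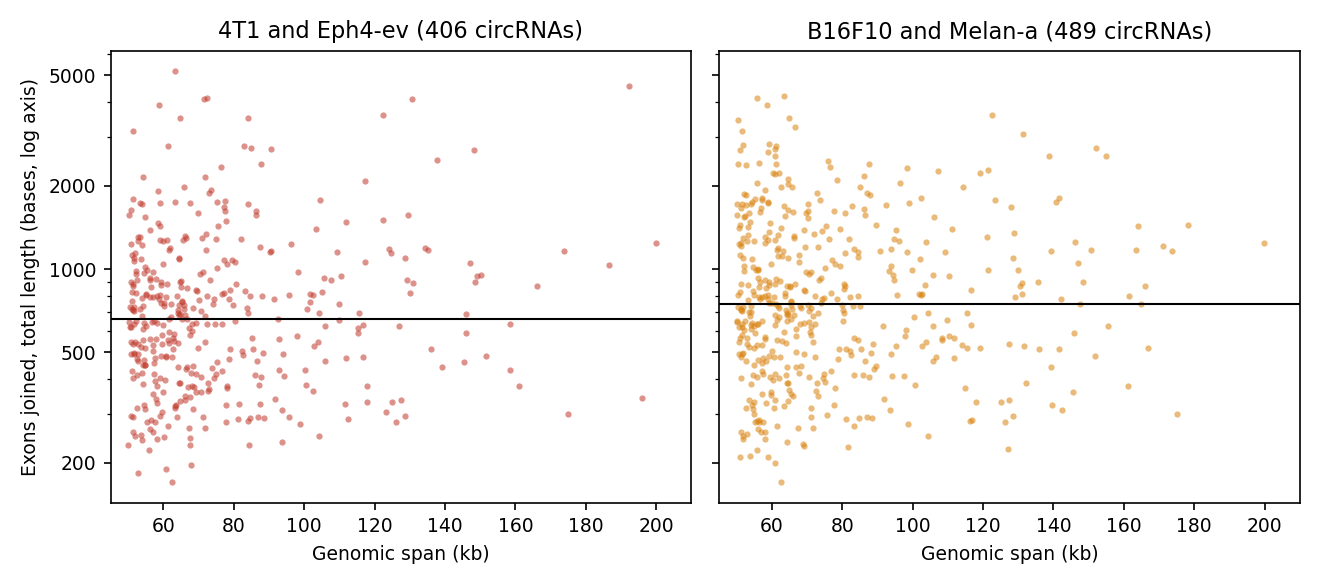
Each point is a circRNA of at least 50000 bp with reads whose ends both fall on exons of 1 transcript: 406 in the mammary lines (left) and 489 in the melanocyte lines (right). The horizontal axis is its genomic span in kb. The vertical axis is the total length of its annotated exons in bases on a log axis, and the line is the median (659.5 and 750 bases).

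The largest intron inside a long-span circle had a median of 39846.5 bp in the mammary table, a length that the threshold on span largely sets. As a share of the span it was close to that of the other circRNAs (medians 55.8% and 55.3%). The introns outside the circle had medians of 18466.5 bp upstream and 22611 bp downstream against 7904 and 5177 bp for the others. The rule did not use these lengths directly, but it picks long genes, so they are not independent of it. The host genes had a median length of 238626 bp against 81684 bp, a difference that a threshold on span forces in part, since a circle cannot be longer than its gene. In the melanocyte table these medians were 22814 and 22611 bp for the flanking introns, against 7678 and 5767 bp, and 268184 against 85855 bp for the genes.

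Long-span circles started at exon 2 in 40.4% of mammary cases (164 circRNAs), against 33.9% of the others. In the melanocyte table the shares were 40.1% and 31.3%. Their annotated exons held the start of the coding sequence in 24.6% and 23.9% of cases, against 15.6% and 15.2%. Nearly all ends were known exon boundaries: 98.3% of lower and 99.5% of upper ends in the mammary table lay at one, and 98.8% of each in the melanocyte table. Of the mammary circles, 76.5% shared at least one end with a shorter circle of the same gene, as did 80.5% of the melanocyte ones. The column headed circBase held an ID for 67.3% and 71.0% of them, against 76.0% and 76.7% of the others.

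Individual long-span circles were seldom found in every library. Only 18 (4.27%) of the mammary ones and 29 (5.72%) of the melanocyte ones had reads in all 6 libraries, against 10.1% and 10.5% of the others. Reads in 1 library only were seen for 38.6% of the mammary ones against 32% of the others. For the melanocyte ones these shares were 46.2% and 39.3%. The median number of reads per circle over 6 libraries was 7 in the mammary and 4 in the melanocyte table, the same as for the others, and the highest were 223 and 400. Of the circles with reads, 217 had them in both tables, which is 51.4% of the mammary and 42.8% of the melanocyte ones. The shares for the other circRNAs were 58.5% and 63.5%.

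Long-span circles took a few percent of the junction reads, and the direction of the line difference was opposite in the 2 lineages. In 4T1 they held 2.39%, 2.90% and 3.28% of the junction reads of circRNAs with 1 host (exact 95% binomial intervals 2.15 to 2.64, 2.65 to 3.16 and 3.11 to 3.45). In Eph4-ev they held 2.22%, 2.15% and 1.97% (2.10 to 2.36, 2.03 to 2.28 and 1.86 to 2.10). Every 4T1 library lay above every Eph4-ev library, though the intervals of 4T1 replicate 1 and Eph4-ev replicate 1 overlapped. The means were 2.85% ± 0.449 and 2.12% ± 0.129 (SD, n = 3; exact two-sided permutation p = 0.1, the smallest that 3 against 3 allows). The intervals cover counting error only.

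In B16F10 they held 3.21%, 3.46% and 3.44% (intervals 2.97 to 3.47, 3.18 to 3.75 and 3.16 to 3.73). In Melan-a they held 3.95%, 4.41% and 3.88% (3.71 to 4.20, 4.19 to 4.64 and 3.64 to 4.13). Every Melan-a library lay above every B16F10 library. The means were 3.37% ± 0.138 and 4.08% ± 0.289 (SD, n = 3; exact two-sided permutation p = 0.1, again the smallest possible). As a share of the circRNAs with at least 1 read, long-span circles made up 4.04% ± 0.364 in 4T1 against 3.68% ± 0.227 for Eph4-ev (SD, n = 3; exact permutation p = 0.3). The values were 4.84% ± 0.249 in B16F10 against 5.36% ± 0.387 for Melan-a (SD, n = 3; exact permutation p = 0.2). This share can depend on depth, which differed between the lines. Thinned to equal depth, it was 3.98% ± 0.304 in 4T1 against 3.40% ± 0.179 for Eph4-ev (SD, n = 3). In the melanocyte lines it was then 4.83% ± 0.296 in B16F10 against 5.21% ± 0.388 for Melan-a (SD, n = 3).

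**Figure D2:**
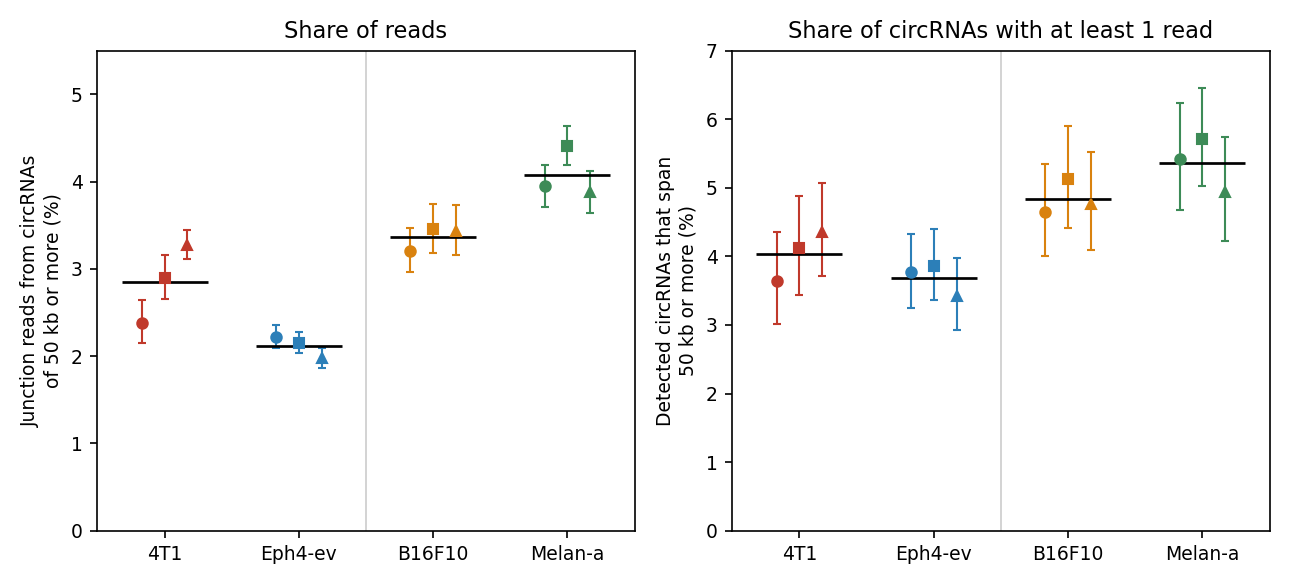
Share of junction reads (left) and of detected circRNAs (right) that belong to circles of at least 50000 bp, in percent, for each library. Points are libraries (circle, square and triangle for replicates 1, 2 and 3) with exact 95% binomial intervals, and black lines are means of 3; on the left the 4T1 libraries (2.39% to 3.28%) lie above those of Eph4-ev (1.97% to 2.22%), and the B16F10 libraries (3.21% to 3.46%) below those of Melan-a (3.88% to 4.41%).

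The groups did not overlap in the read share of circles under 100000 bp, and they did above it. Circles of 50000 to 100000 bp held 2.55% ± 0.413 of reads in 4T1 against 1.82% ± 0.135 in Eph4-ev, and 2.63% ± 0.0688 in B16F10 against 3.35% ± 0.251 for Melan-a (SD, n = 3). Circles of 100000 bp or more held 0.301% ± 0.116 in 4T1 against 0.296% ± 0.00627 for Eph4-ev (SD, n = 3; exact permutation p = 1). They held 0.738% ± 0.0853 in B16F10 against 0.727% ± 0.0477 for Melan-a (SD, n = 3; exact permutation p = 0.9). The longest circle listed, in Tasp1, spanned 199798 bp. Whether the callers were run with a maximum span is not given in the sources used here. 

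At the other edge, the members just inside the threshold in the mammary table included circles of Ankib1 (50242 bp; 0, 0 and 0 reads in the 4T1 libraries, 2, 4 and 4 in those of Eph4-ev) and Eri3 (50621 bp). Those just outside were circles of Stag1 (49291 bp; 7, 0 and 0 against 0, 16 and 18), Fer (49686 bp; 0, 1 and 2 against 4, 1 and 0) and Rbms1 (49784 bp; 2, 16 and 12 against 14, 5 and 6). In the melanocyte table Nf1 (50371 bp; 3, 1 and 1 reads in the B16F10 libraries, 0 in each of Melan-a) and Eri3 (5, 3 and 2 against 3, 3 and 5) were inside. Rims2 (49568 bp; 15, 7 and 7 against 6, 2 and 14), L3mbtl3 (49723 bp; 1, 2 and 2 against 0 in each) and Gsk3b (49735 bp; 0, 0 and 3 against 0, 3 and 1) were outside.

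A few host genes gave much of the signal. The 5 hosts with the most long-span reads held 23.7% of them in the mammary and 29.7% in the melanocyte lines. Most hosts, 157 of 247 and 167 of 272, had 1 long-span circle, while 11 and 18 had at least 5. Nearly all, 230 and 255, also gave shorter circles. In the median host, long-span circles took 11.0% of the gene's junction reads in the mammary and 13.3% in the melanocyte lines. In 42 and 50 hosts they took over 50%, but 17 of these in each table had no shorter circle with reads.

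Tasp1, which encodes taspase, the protease that cleaves KMT2 (MLL) proteins, led in both lineages, with 362 long-span reads in 11 circles and 468 in 10. Of its circles, 8 in each table accepted at the same exon 2 (upper end at position 140057499 of chromosome 2). These held 91.4% and 97.0% of its long-span reads. The circle of exons 2 to 8 (chr2:139977607-140057499, mm10, minus strand) was the most abundant, with 209 and 259 reads. The other hosts with the most reads in the mammary lines were Arhgap10, a GTPase-activating protein (313 reads), Rere, a transcriptional corepressor of the atrophin family (242), Dtnb, beta-dystrobrevin (234), and Ankrd11, a chromatin regulator (189). In the melanocyte lines they were Ncoa2, a nuclear receptor coactivator (405), Pde11a, a cyclic nucleotide phosphodiesterase (286), Arid1b, a subunit of the BAF chromatin remodelling complex (194), and Rere (177). Rere had the most different circles in the melanocyte lines, 14, with spans of 57582 to 164101 bp. By number of circles Tasp1 and Rere (10) were followed in the mammary lines by Large (7), and in the melanocyte lines by Agap1 (10), Erc1 (8) and Exoc4 (7).

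**Figure D3:**
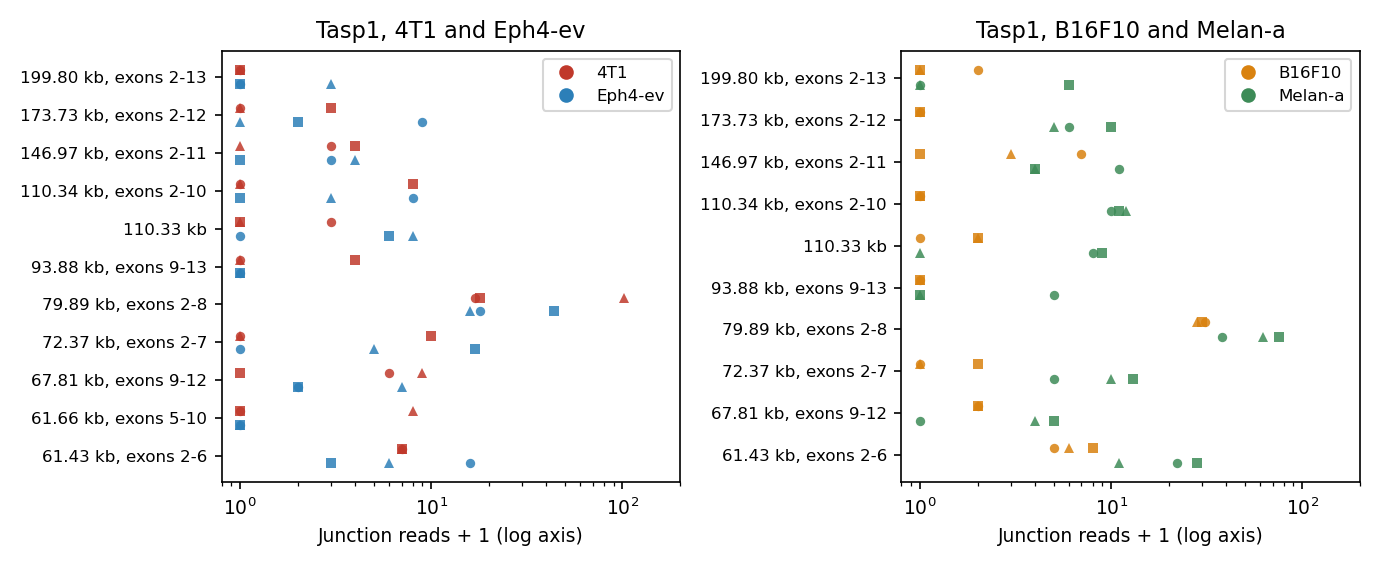
Junction reads per library plus 1, on a log axis, for each long-span Tasp1 circle in the mammary lines (left) and the melanocyte lines (right). Rows are circles ordered by span, symbols are replicates 1 to 3, and a point at 1 is a library with 0 reads; the circle of exons 2 to 8 (79893 bp) has reads in all 12 libraries, while that of exons 2 to 10 (110343 bp, the row starting at 139947157) has 0 in each B16F10 library.

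The lines of a lineage shared some of their most abundant circles. RPM here is the junction reads of a circle scaled to a common library total, and, since each circle has 1 junction, it needs no correction for length. In 4T1 the leading circles were those of Pvt1 (1608 ± 369 RPM), Ankrd11 (1481 ± 414), Tasp1 exons 2 to 8 (1416 ± 734), Gli3 (764 ± 72.8) and Arhgap10 exons 14 to 19 (673 ± 158; SD, n = 3). In Eph4-ev they were Dtnb (1068 ± 452), Arhgap10 exons 14 to 19 (1018 ± 314), Large (582 ± 219), Ube2cbp, an E3 ubiquitin ligase (477 ± 154), and Tasp1 exons 2 to 8 (455 ± 265; SD, n = 3). The Arhgap10 circle (chr8:77310731-77365160, minus strand) did not pass the test (log2 fold of -0.76 with SE 0.38, edgeR adjusted p = 0.207), nor did that of Ube2cbp (chr9:86372341-86440754, minus strand; log2 fold of -0.01 with SE 0.46, adjusted p = 0.994). In B16F10 the order was Pde11a (1752 ± 17.1 RPM), Ncoa2 (1728 ± 398), Tasp1 exons 2 to 8 (1609 ± 106) and the Fto circles of 121090 bp (1478 ± 121) and 83472 bp (1058 ± 149; SD, n = 3). In Melan-a it was Ncoa2 (3644 ± 198), Pde11a (2079 ± 375), Tasp1 exons 2 to 8 (2045 ± 502), Arid1b (1475 ± 563) and Rngtt (1367 ± 1185; SD, n = 3). Pde11a (chr2:76017836-76076083, minus strand, exons 11 to 19) had 35, 30 and 29 reads in the B16F10 libraries against 45, 65 and 63 in those of Melan-a (log2 fold of -0.31 with SE 0.28, edgeR adjusted p = 0.567). Rngtt, the mRNA capping enzyme, had 50, 0 and 53 reads in the Melan-a libraries against 0 in each of B16F10, and did not pass the filter on low counts. The shorter Rngtt circle of exons 12 to 13, with the same acceptor, had 62, 44 and 66 against 0 in each (edgeR adjusted p = 4.2e-05).

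In 4T1 against Eph4-ev, 53 of the 422 long-span circles had enough reads to be tested. In 4T1, 8 were higher and 6 lower at an edgeR adjusted p under 0.05, where the adjustment ran over all circRNAs tested. Over all 1869 circRNAs tested, 5.99% were higher and 11.4% lower. Of the members tested, 15.1% were higher and 11.3% lower. The filter keeps a circle that is abundant in either line, so the 53 are not a fair sample of the 422. The median log2 fold was 0.15 over the members tested and -0.22 over all circRNAs tested, and setting the circles with 0 reads in a line to their bound left both medians as they were. Scaled by total reads alone, the median of all circRNAs was -0.01 and that of the members 0.34, a shift of the zero point, and 10 members were higher and 4 lower. In each of the 14 called circles the libraries of the lines did not overlap in RPM, which being called favours: the same held for 99.1% of all 325 called circRNAs, and for 41.5% of the members tested against 37.6% of all circRNAs tested. Thinned to equal depth, 12 members could be tested, of which 5 were higher and 1 lower, where 12.2% and 14.0% of all 728 circRNAs tested were. Leaving out a 4T1 library gave 8, 5 and 4 members higher and 3, 4 and 3 lower for replicates 1, 2 and 3. Leaving out an Eph4-ev library gave 6, 2 and 5 higher and 2, 0 and 3 lower, and in the edgeR fit without replicate 2 that had 0 lower, 7 were lower at an unadjusted p under 0.05 and 42 of all circRNAs were called lower.

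The circle of Gli3, a zinc finger transcription factor of Hedgehog signalling, covers exons 2 to 3 (chr13:15478000-15548642, plus strand). It had 11, 15 and 33 reads in the 4T1 libraries and 0 in each Eph4-ev library. Scaled by total reads and set against a floor of 3 counts over the 3 Eph4-ev libraries, it was at least 41.1-fold higher in 4T1 (edgeR adjusted p = 0.00194). It kept its call in all 13 alternatives run.

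Rptor encodes Raptor, the scaffold subunit of the kinase complex mTORC1, and its circle of exons 3 to 4 (chr11:119671278-119725168, plus strand) had 11, 8 and 20 reads in the 4T1 libraries against 0 in each of Eph4-ev. It was at least 27.2-fold higher in 4T1 (edgeR adjusted p = 0.00517), in all 13 alternatives too. That of Stk39, the kinase SPAK that regulates cation-chloride cotransporters (chr2:68263235-68314603, minus strand, exons 11 to 16), had 7, 9 and 6 reads and 0 in each Eph4-ev library. It was at least 15.3-fold higher (edgeR adjusted p = 0.0147), and its call was lost without 4T1 replicate 1 (0.0532), 4T1 replicate 2 (0.0542) or Eph4-ev replicate 2 (0.0829). Gli3 and Stk39 had no junction read of any circle in Eph4-ev.

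Pvt1 is a long noncoding RNA gene next to Myc. Its circle of exons 2 to 3 (chr15:62107148-62175548, plus strand) had 31, 28 and 56 reads in the 4T1 libraries against 18, 10 and 5 in those of Eph4-ev. In RPM the lowest 4T1 library lay above the highest Eph4-ev library (means 1608 ± 369 and 207 ± 135, SD, n = 3). The log2 fold was 2.69 with SE 0.48 (edgeR adjusted p = 0.0052), with 0.0508 without Eph4-ev replicate 2. The circle of exon 2 alone, which shares its acceptor, had 274, 348 and 697 reads against 661, 743 and 896 (log2 fold of 0.08 with SE 0.12, edgeR adjusted p = 0.732).

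Med13l, of the kinase module of Mediator, gave a pair of long-span circles that both accept at exon 2 (plus strand of chromosome 5). That of exons 2 to 3 (chr5:118593333-118671097) had 5, 4 and 29 reads in the 4T1 libraries against 2, 1 and 0 in those of Eph4-ev, a pooled ratio of 26.5 (95% exact counting interval 8.40 to 134; edgeR adjusted p = 0.0201). That of exons 2 to 4 (chr5:118593333-118680971) had 3, 10 and 26 reads against 2, 4 and 1 (log2 fold of 3.12 with SE 0.83, edgeR adjusted p = 0.0267). The circle of exon 2 alone was higher as well, with 220, 199 and 379 reads against 148, 167 and 189 (log2 fold of 1.61 with SE 0.18, edgeR adjusted p = 0.000321). Most reads of both long circles came from 4T1 replicate 3, the deepest 4T1 library (44625 junction reads). In RPM the 4T1 libraries gave 321, 226 and 650 for exons 2 to 3 and 193, 564 and 583 for exons 2 to 4. Without 4T1 replicate 3 the edgeR adjusted p was 0.177 and 0.115. The first of these calls was also lost without Eph4-ev replicates 2 (0.106) and 3 (0.0844), and the other without 4T1 replicate 2 (0.0717) and each Eph4-ev library (0.0918 to 0.121), and with no filter on low counts (0.104).

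Ankrd11 exons 2 to 4 (chr8:122908668-122974792, minus strand) had 16, 28 and 82 reads in the 4T1 libraries against 12, 17 and 34 in those of Eph4-ev (log2 fold of 1.75 with SE 0.44, edgeR adjusted p = 0.0213). The call was lost without 4T1 replicate 3 (0.105), Eph4-ev replicate 1 (0.0765) or Eph4-ev replicate 2 (0.121). The shorter circle of exons 3 to 4, with the same donor, gave a log2 fold of 1.38 with SE 0.40 (edgeR adjusted p = 0.0367). The Arhgap10 circle of exons 12 to 20 (chr8:77277148-77384796, minus strand) had 2, 4 and 6 reads against 0, 1 and 0, a pooled ratio of 25.1 (95% exact counting interval 3.71 to 1072; edgeR adjusted p = 0.0477). This call was held by 1 of 9 alternatives, with adjusted p up to 0.449. It was lost without 4T1 replicate 1 (0.148) and without each Eph4-ev library (0.13 to 0.255). The shorter circle of exons 12 to 18, with the same acceptor, gave a log2 fold of -0.68 with SE 1.00 (edgeR adjusted p = 0.709).

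**Figure D4:**
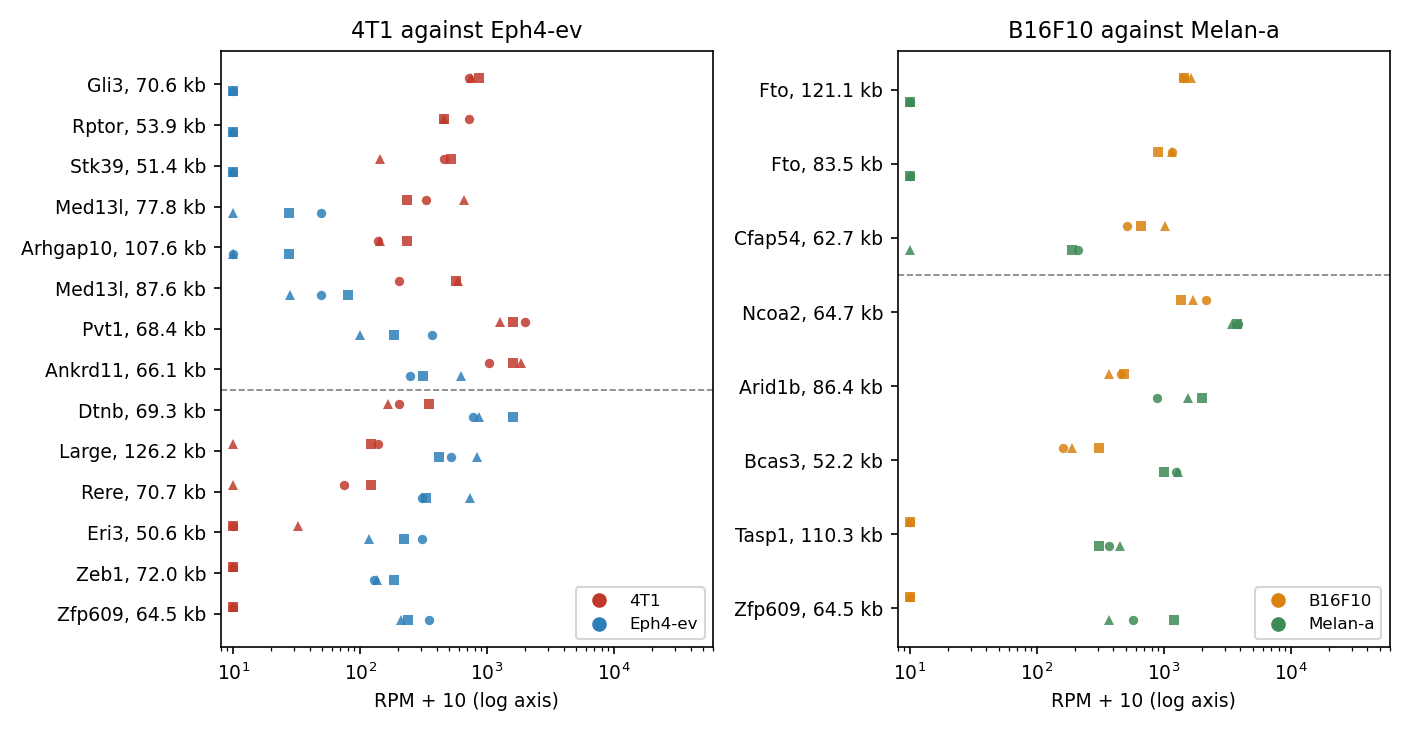
RPM per library plus 10, on a log axis, for each called long-span circle in 4T1 against Eph4-ev (left, 14 circles) and in B16F10 against Melan-a (right, 8 circles). Symbols are replicates 1 to 3, points at 10 are libraries with 0 reads, and the dashed line parts circles higher in the tumour line (above) from those lower; in each row the libraries of the lines do not overlap, which being called favours.

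Among the circles lower in 4T1, that of Dtnb, a protein of the dystrophin complex, was the most abundant (chr12:3617606-3686862, plus strand, exons 5 to 9). It had 3, 6 and 7 reads in the 4T1 libraries against 39, 90 and 47 in those of Eph4-ev (log2 fold of -2.51 with SE 0.50, edgeR adjusted p = 0.00947), with 0.0892 without Eph4-ev replicate 2. A shorter Dtnb circle with the same acceptor, exons 5 to 8, moved the same way, with 30, 31 and 99 reads against 475, 544 and 493 (log2 fold -2.44, SE 0.18). Large encodes a glycosyltransferase that acts on alpha-dystroglycan, which the dystrophin complex also binds. Its circle of exons 2 to 3 (chr8:73214125-73340286, minus strand) had 2, 2 and 0 reads against 26, 23 and 46 (log2 fold of -3.45 with SE 0.89, edgeR adjusted p = 0.0229). Without Eph4-ev replicates 2 or 3 the adjusted p was 0.0905 and 0.116.

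The Zfp609 circle of exons 2 to 3 (chr9:65730976-65795495, minus strand) had 0 reads in each 4T1 library and 17, 13 and 11 in Eph4-ev. It was at least 6.54-fold lower in 4T1 (edgeR adjusted p = 0.0201), with 0.0639 to 0.0931 when any Eph4-ev library was left out. Zfp609 is a zinc finger protein gene known for an abundant circle of exon 2, which had 14, 17 and 46 reads here against 332 to 397 (log2 fold -3.03, SE 0.19). Rere exons 4 to 10 (chr4:150439343-150510038, plus strand) had 1, 2 and 0 reads against 15, 18 and 40, a pooled ratio of 0.0859 (95% exact counting interval 0.0173 to 0.261; edgeR adjusted p = 0.034). Of the libraries left out in turn, only 4T1 replicate 2 left the call in place. Without any other library the adjusted p was 0.0537 to 0.184, and it was 0.0501 when scaled by total reads alone. Among shorter Rere circles that share an end, exons 4 to 7 gave a log2 fold of -2.10 with SE 0.59 (edgeR adjusted p = 0.0325). Exons 8 to 10 gave -0.29 with SE 0.72 (edgeR adjusted p = 0.838).

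Eri3, a gene of an exonuclease family, had a circle of exons 3 to 7 (chr4:117564621-117615241, plus strand) with 0, 0 and 1 reads in the 4T1 libraries against 15, 12 and 6 in those of Eph4-ev. The pooled ratio was 0.0633 (95% exact counting interval 0.00156 to 0.378; edgeR adjusted p = 0.0444), and the call was kept by 1 of 9 alternatives, being lost without each 4T1 library or Eph4-ev replicate 3 (0.0756 to 0.102). Its shorter circle of exons 4 to 7, with the same donor, gave a log2 fold of -0.94 with SE 0.69 (edgeR adjusted p = 0.407). The long-span circle of Zeb1, a repressor of E-cadherin, had 0 reads in each 4T1 library and 6, 10 and 7 in Eph4-ev. It was at least 3.67-fold lower in 4T1 (edgeR adjusted p = 0.0423), a call kept by 2 of 11 alternatives and lost without any of the 6 libraries (0.0885 to 0.16). It was the only mesenchymal marker with circRNA reads in Eph4-ev.

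Summed over a host, long-span reads could be tested for 60 genes in the mammary lines, beside the sums of their shorter circles. Of the 60, 8 were higher in 4T1 and 6 lower (edgeR adjusted p under 0.05), with 5 to 9 and 1 to 4 when a library was left out, the fewest lower without Eph4-ev replicate 1 or 2. Over all 1560 sums tested, 6.99% were higher and 10.5% lower. Tasp1, whose circle of 79893 bp was not called (16, 17 and 101 reads against 17, 43 and 15; log2 fold of 1.48 with SE 0.51, edgeR adjusted p = 0.0692), was called as a sum. The circle itself passed when scaled by total reads alone (adjusted p = 0.0354), with a minimum count of 10 (0.0291) and thinned to equal depth (0.0299). Its long-span reads were 31, 47 and 122 in the 4T1 libraries against 50, 68 and 44 in those of Eph4-ev (log2 fold of 1.18 with SE 0.28, edgeR adjusted p = 0.00963), and its shorter circles gave 0.27 (SE 0.22, adjusted p = 0.448). Spata5, an AAA ATPase, had 11, 5 and 14 long-span reads against 4, 0 and 0 (log2 fold of 3.76 with SE 1.12, edgeR adjusted p = 0.0295). Slc4a4, a sodium bicarbonate cotransporter, had 0 in each 4T1 library and 10, 9 and 7 in Eph4-ev (edgeR adjusted p = 0.0431), and Zfpm2, a cofactor of GATA factors, 0 and 12, 7 and 6 (adjusted p = 0.0479). Zfpm2 had no junction read of any circle in 4T1. Its shorter circle of exons 2 to 3 had 0 reads in each 4T1 library against 44, 62 and 54 in those of Eph4-ev (edgeR adjusted p = 0.000758).

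A test on whether long-span reads moved apart from the host as a whole was added after the data had been seen. It covered 49 hosts of the mammary lines and called 3 (6.12%; 1 to 5 when a library was left out); in each the long-span share was larger in 4T1. In Pvt1 long-span reads were 7.75% of the gene's junction reads in 4T1 (exact 95% interval 6.44 to 9.23, of 1484 reads) and 1.36% in Eph4-ev (0.940 to 1.91, of 2421). The long-span change lay 2.52 above that of the gene on the log2 scale (edgeR adjusted p = 0.000191), and all 12 alternatives kept the call. In Rptor the shares were 76.2% (66.7 to 84.1, of 101 reads) and 5.41% (0.661 to 18.2, of 37). The difference was 3.55 (edgeR adjusted p = 0.0113), with 0.127 and 0.0774 without Eph4-ev replicates 2 and 3. In Spata5 they were 42.9% (31.1 to 55.2, of 70 reads) and 3.57% (0.982 to 8.89, of 112). Its difference of 3.46 (edgeR adjusted p = 0.0272) was lost without each library but Eph4-ev replicate 1 (0.0609 to 0.208) and with no filter (0.0718). In Dtnb the shares were 5.84% and 9.14%, and the difference was -0.47 (edgeR adjusted p = 0.648). In Zfp609 0 of 78 reads in 4T1 allows a share of up to 3.85%, which covers the 3.53% of Eph4-ev.

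In B16F10 against Melan-a, 30 of the 507 long-span circles with reads could be tested. At an edgeR adjusted p under 0.05, 3 were higher in B16F10 and 5 (16.7%) lower. Over all 874 circRNAs tested, 5.03% were higher and 5.84% lower. The filter keeps a circle that is abundant in either line, so the 30 are not a fair sample of the 507. Of the 30, 4 had 0 reads in a line. The median log2 fold was -0.45 over the members tested and 0.04 over all circRNAs tested. All 8 called circles had libraries that did not overlap in RPM, as had 98.9% of all 95 called circRNAs, and the shares among those tested were 46.7% of the members and 31.9% of all circRNAs. The count of lower circles was 2, 4 and 3 without B16F10 replicates 1, 2 and 3, and 3, 7 and 4 without Melan-a replicates 1, 2 and 3.

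Fto encodes an RNA demethylase, and its long-span circles accept at exon 2 on the plus strand of chromosome 8. That of exons 2 to 8 (chr8:91401807-91522896) had 28, 24 and 27 reads in the B16F10 libraries against 0 in each of Melan-a. It was at least 41.1-fold higher in B16F10 (edgeR adjusted p = 4.2e-05). That of exons 2 to 7 (chr8:91401807-91485278) had 23, 15 and 19 reads and 0 in each Melan-a library, and was at least 29.7-fold higher (edgeR adjusted p = 0.000166). Both kept the call in all 13 alternatives. The short circle of exons 2 to 3 had 59, 40 and 37 reads in the B16F10 libraries against 0, 8 and 5 in those of Melan-a (log2 fold of 3.93 with SE 0.53, edgeR adjusted p = 0.000236).

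Cfap54, a gene of cilia and flagella, had a circle of exons 56 to 65 (chr10:92815881-92878612, minus strand) with 10, 11 and 17 reads in the B16F10 libraries against 5, 6 and 0 in those of Melan-a. The log2 fold was 2.35 with SE 0.71 (edgeR adjusted p = 0.0466), and the call was lost without each library but Melan-a replicate 2 (0.0826 to 0.255), with no filter (0.0828) and by DESeq2 (0.0748).

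Among the circles lower in B16F10, that of Bcas3 exons 17 to 24 (chr11:85531793-85583994, plus strand) had 3, 5 and 3 reads in the B16F10 libraries against 31, 33 and 32 in those of Melan-a. Its log2 fold was -2.52 with SE 0.46 (edgeR adjusted p = 0.0028), in all 13 alternatives. The shorter circle of exons 22 to 24, with the same donor, gave a log2 fold of -3.71 with SE 0.96 (edgeR adjusted p = 0.0241). The Zfp609 circle of exons 2 to 3 had 0 reads in each B16F10 library and 14, 40 and 9 in Melan-a, and was at least 13.4-fold lower in B16F10 (edgeR adjusted p = 0.00306). Its call held in all 11 alternatives that could be run. The Zfp609 circle was the only long-span circle called in both lineages, with 0 reads in each of the 6 tumour line libraries. The exon 2 circle of Zfp609 was lower in B16F10 too, with 3, 9 and 9 reads against 135, 89 and 133 (log2 fold of -3.52 with SE 0.44, edgeR adjusted p = 0.000107).

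Arid1b exons 2 to 4 (chr17:5040580-5127024, plus strand) had 9, 8 and 6 reads in the B16F10 libraries against 22, 67 and 39 in those of Melan-a (log2 fold of -1.85 with SE 0.43, edgeR adjusted p = 0.0123). Without B16F10 replicates 1 or 3 the adjusted p was 0.0789 and 0.0757. Ncoa2 exons 2 to 4 (chr1:13221307-13286025, minus strand) had 43, 23 and 28 reads against 95, 125 and 86 (log2 fold of -1.13 with SE 0.29, edgeR adjusted p = 0.0241). This call was lost without each B16F10 library (0.0685 to 0.176), without Melan-a replicate 1 (0.0615) and with no filter (0.0938). The Ncoa2 circle of exons 3 to 4, with the same donor, had 9, 12 and 17 reads against 9, 16 and 8 (log2 fold of 0.80 with SE 0.48, edgeR adjusted p = 0.34).

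Tasp1 exons 2 to 10 (chr2:139947157-140057499, minus strand) had 0 reads in each B16F10 library and 9, 10 and 11 in Melan-a, and was at least 6.40-fold lower in B16F10 (edgeR adjusted p = 0.0225). A second row of the table ends 13 bases away (139947170), with 0, 1 and 1 reads against 7, 8 and 0, so the split of reads between these rows is uncertain. The call was lost without each B16F10 library (0.055 to 0.0789) and without Melan-a replicates 1 (0.0954) and 3 (0.103). The shorter circle of exons 2 to 4, with the same acceptor, gave a log2 fold of -0.11 with SE 0.31 (edgeR adjusted p = 0.886). As sums over hosts, 37 genes were tested, of which 1 was higher in B16F10, Fto, and 5 lower, Tasp1, Ncoa2, Arid1b, Bcas3 and Zfp609 (3 to 7 lower when a library was left out, 3 without B16F10 replicate 1 or 3). Over all 917 sums, 2.73% were higher and 4.47% lower. Long-span Tasp1 reads were 42, 39 and 36 against 97, 153 and 101 (log2 fold of -1.0 with SE 0.25, edgeR adjusted p = 0.022).

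Of 29 hosts tested for a long-span change apart from the gene as a whole, 1 was called in the melanocyte lines (3.45%), Fto. Long-span circles held 46.3% of Fto junction reads in B16F10 (exact 95% interval 40.5 to 52.1, of 294 reads) and 0 of 20 reads in Melan-a, which allows a share of up to 15%. The difference from the gene was 4.41 on the log2 scale (edgeR adjusted p = 0.00404), and it was lost with no filter (0.0509) and without Melan-a replicate 3 (0.0548), when edgeR called 0 hosts (3 at an unadjusted p under 0.05). In Ncoa2 long-span circles held 71.3% in B16F10 (62.9 to 78.7, of 136 reads) and 89.8% in Melan-a (86.1 to 92.8, of 343), with a difference of -0.34 (edgeR adjusted p = 0.754). Long-span reads are most of the gene's reads, so this test sets them largely against themselves and cannot show that both kinds moved together. As sums, Ncoa2 long-span reads gave a log2 fold of -1.10 with SE 0.26 (edgeR adjusted p = 0.0179). Its shorter circles gave 0.75 (edgeR adjusted p = 0.396).

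**Figure D5:**
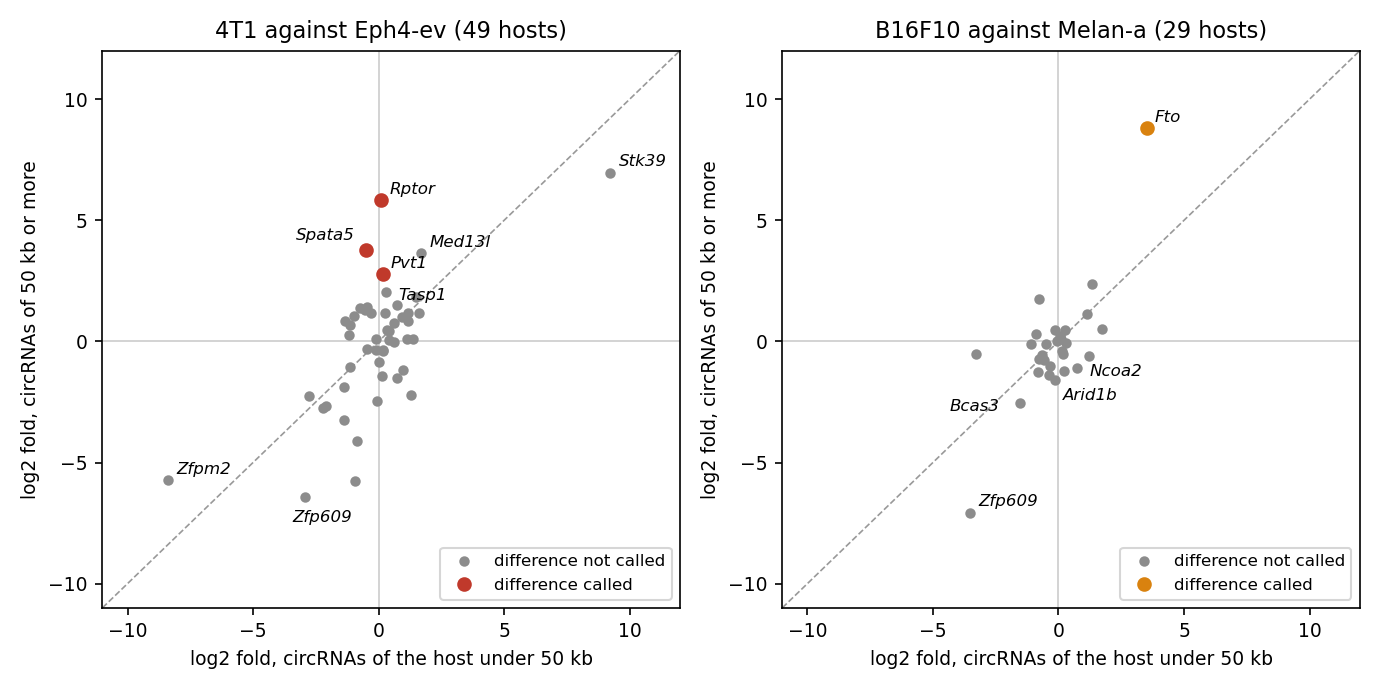
Fitted log2 folds of the summed reads of a host's circles of at least 50000 bp (vertical) against those of its shorter circles (horizontal), for 49 hosts in 4T1 against Eph4-ev and 29 in B16F10 against Melan-a. The dashed line marks equal change, coloured points are the 3 and 1 hosts whose long-span reads moved apart from the gene as a whole, and folds of hosts with 0 reads in a line (Fto, Zfp609, Stk39 and Zfpm2 among those named) depend on the fit and are no measure of size.

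The test of the difference between the lineages covered 37 long-span circles and called 4, or 2 to 5 when a library was left out, where 11.5% of all 1403 circRNAs tested were called. Gli3 had the largest difference: reads were in 4T1 and not in Eph4-ev, whereas B16F10 gave 5, 8 and 10 reads against 18, 34 and 11 for Melan-a (log2 fold of -0.82 with SE 0.50, edgeR adjusted p = 0.359). Ncoa2 had 4, 9 and 35 reads in the 4T1 libraries against 11, 10 and 9 in those of Eph4-ev (log2 fold of 1.33 with SE 0.61, edgeR adjusted p = 0.168), with the lower values in B16F10 given above. Arid1b had 7, 9 and 23 against 27, 7 and 9 in the mammary lines (log2 fold of 0.64 with SE 0.65, edgeR adjusted p = 0.566). Tasp1 exons 2 to 8 had 30, 29 and 27 reads in the B16F10 libraries against 37, 75 and 61 in those of Melan-a (log2 fold of -0.41 with SE 0.30, edgeR adjusted p = 0.465).

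Some long-span circles had reads in all 3 libraries of a line, at least 2 in each, and 0 in each library of its partner. There were 3 in 4T1, 13 in Eph4-ev, 3 in B16F10 and 6 in Melan-a, or 0.711%, 3.08%, 0.592% and 1.18% of the members with reads. Among the other circRNAs with 1 host and reads the shares were 0.539%, 3.52%, 0.353% and 0.463%, and these differences were not tested. The 9 long-span ones with enough reads to be tested were called, which the choice itself favours. Eph4-ev is the deeper line of its pair, so a 0 in 4T1 says less than a 0 in Eph4-ev. Among those too thin to test in Eph4-ev were Zfpm2 exons 4 to 5 (9, 6 and 3 reads), Srbd1 exons 11 to 16 (10, 4 and 12) and Rere exons 4 to 8 (12, 10 and 2). In B16F10 it was Bnc2 exons 2 to 6, of a zinc finger gene linked to pigmentation (chr4:84390889-84555904, minus strand; 4, 3 and 5 reads). The Bnc2 circle of exons 3 to 6 (chr4:84390889-84546405), which differs by the acceptor, had reads in both lines, 4, 9 and 5 in the B16F10 libraries against 10, 19 and 12 in those of Melan-a (log2 fold of -0.57 with SE 0.54, edgeR adjusted p = 0.579). In Melan-a they included Sgms1, sphingomyelin synthase, exons 2 to 5 (2, 9 and 4 reads), Atp9b exons 2 to 10 (5, 3 and 7) and Tasp1 exons 2 to 12 (5, 9 and 4).

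The 5 longest circles of each table with at least 2 reads in every library of a line included those of Tasp1 (173728 bp), Large (166019 bp, exons 3 to 7), Bnc2 (165016 and 155517 bp), Atxn1 (161067 bp), Nfib (148381 bp) and Large (126162 bp). Large exons 3 to 7 had 4, 2 and 2 reads in the Eph4-ev libraries against 0 in each of 4T1. Atxn1, the ataxin gene of a spinocerebellar ataxia, had 0, 2 and 0 reads in the 4T1 libraries against 3, 8 and 10 in those of Eph4-ev, and 4, 2 and 2 in the B16F10 libraries against 9, 11 and 2 in those of Melan-a. It was not called: the mammary edgeR adjusted p was 0.304, and the melanocyte circle had too few reads. Nfib, a nuclear factor I gene, had 0, 0 and 5 reads against 15, 15 and 7 in the mammary lines (edgeR adjusted p = 0.19) and 3, 9 and 7 against 18, 20 and 15 in the melanocyte lines (0.336).

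Host genes were also grouped by function. Of 31 chromatin and transcription genes, 10 gave long-span reads in the mammary lines (9.27% of such reads) and 11 in the melanocyte lines (16.8%). Among the 8 tested as sums in the mammary lines, Med13l was higher and Zfp609 and Zfpm2 lower. Among 5 in the melanocyte lines, Ncoa2, Arid1b and Zfp609 were lower (medians 0.20 and -1.10, against -0.09 and 0.02 over all sums tested). Over all sums, 6.99% were higher and 10.5% lower in the mammary lines, and 2.73% and 4.47% in the melanocyte lines. Zfp609 and Zfpm2 had 0 long-span reads in the tumour line where called, and could be tested only through its partner. These counts and medians therefore say nothing of the list. Of 28 very long and fragile-site genes, 4 gave long-span reads in each lineage (3.04% and 5.36%), with Large lower among 2 tested and Fto higher among 3 (medians -0.70 and -0.73). Fto had 0 long-span reads in Melan-a and could be tested only through its B16F10 reads. Its call says nothing of the list. Of 29 kinase and receptor signalling genes, 3 gave such reads in each lineage (1.98% and 0.311%), and the 2 genes tested in the mammary lines, Rptor and Stk39, were higher (fitted median 6.40, or 5.11 with Stk39 at its bound), where 6.99% of all sums were. Stk39 had 0 reads in Eph4-ev and Rptor 2 long-span reads. Both could be tested only through their 4T1 reads, so the count and median say nothing of the list. Of 29 adhesion, polarity and cytoskeleton genes, 9 and 5 gave such reads (8.46% and 1.71%), and the 4 tested, Arhgap10, Pard3, Ptk2 and Fndc3b, had a median of -0.23 and edgeR adjusted p of 0.442, 0.981, 0.745 and 0.525. Of 22 listed ubiquitin genes, 2 and 1 gave 5 long-span reads in each lineage, too few to test. The list does not hold Ube2cbp, which alone had 46 long-span reads in 4T1 and 88 in Eph4-ev.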

How the data were processed

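CircRNAs were measured in 12 RNase R-treated libraries, 3 of each of 4 mouse cell lines. Per the labels' protocols, the authors detected circRNAs with CIRI2 after BWA-MEM and with CIRCexplorer2 after TopHat and TopHat-Fusion. The submitters' processing notes name mm10. Not given in the sources used here: versions, annotation, and how the callers were combined. Per the file headers, the deposited tables give junction read counts and RPM for each library. Multiplied by the library total, 100% of RPM values came out whole within 0.01 and equal to the counts, so the count test on the recovered reads is the same as the main test.

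Members and gene lists were chosen with earlier results of these data known. Counts were tested across all circRNAs of a table, and over host sums, with edgeR 4.0.16 in R 4.3.3 (TMM; filterByExpr, min.count 5, min.total.count 10, quasi-likelihood F test, Benjamini-Hochberg adjustment, threshold 0.05). Each fit took the 6 libraries of its table, without covariates, and the difference between lineages took all 12. A host's long-span reads were set against the host as a whole with diffSpliceDGE. For shares, two-sided exact permutation tests were used, and shares are given with exact (Clopper-Pearson) 95% intervals. Exons come from GENCODE M21 on mm10, for circles whose ends lie on exons of 1 transcript. Folds against a line with 0 reads use a floor of 3 counts over the group. The alternatives were RLE factors, total reads alone, other filters, DESeq2 1.42.0, a replicate block, libraries thinned to equal depth, each library left out, a threshold of 100000 bp, circRNAs with several hosts included and the most abundant member left out. The scripts were tested on simulated data.

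Circles were named by rule: the 5 of highest mean RPM in each line, every called one, up to 5 per line with at least 2 reads in each library and 0 in the partner line, the 5 longest with at least 2 reads in each library of a line, the 3 nearest either side of the threshold among those with reads in at least 3 libraries, and those that differed between lineages. Hosts were named if they had a called sum, were among the 5 with the most members or reads, or were tested members of a list. A few circles that these rules name, and 1 junction sequence, are not reported here. Lineage was checked with marker genes of melanocyte, epithelial, mesenchymal, immune and keratinocyte cells. Depth ran from 15572 to 56649 junction reads per library, so 1 read is worth 17.7 to 64.2 RPM, and circles with a few reads in all could not be tested.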

Additional observations from a re-analysis of the deposited data

Results flagged for a closer look

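For 4 long-span circles the difference between the tumour line and its partner was not the same in the mammary as in the melanocyte lineage, by edgeR's test of that difference over 37 long-span circles with all 12 libraries. These 4 are 10.8% of the 37, beside 11.5% of all 1403 circRNAs tested, so the count is near the background. Gli3 exons 2 to 3 differed by 8.17 on the log2 scale, mammary minus melanocyte (SE 1.17, edgeR adjusted p = 7.58e-05), a fitted value that depends on the 0 reads in each Eph4-ev library and is no bound. All 18 alternatives kept that call, with an adjusted p of at most 0.000495. Ncoa2 exons 2 to 4 differed by 2.42 (SE 0.54, edgeR adjusted p = 0.00415), with 0.0588 without 4T1 replicate 3, in which its 4T1 value was highest. Tasp1 exons 2 to 8 differed by 1.81 (SE 0.58, edgeR adjusted p = 0.042). That call was kept by 8 of 18 alternatives and lost with no filter (0.234). It was also lost without 4T1 replicates 1 and 3, Eph4-ev replicates 1 and 3, each B16F10 library, and Melan-a replicates 2 and 3 (0.0508 to 0.203). Arid1b exons 2 to 4 differed by 2.40 (SE 0.77, edgeR adjusted p = 0.0425). Its call was kept by 7 of 18 alternatives and lost with no filter (0.231). It was also lost without each 4T1 library, Eph4-ev replicates 2 and 3, each B16F10 library, and Melan-a replicates 2 and 3 (0.0624 to 0.109). The lineages were tabulated separately, and lineage cannot be told apart from the table.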

How the results depend on the processing

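Of the alternative values computed for shares and counts, 141 kept the sign of the share difference or stayed within 1.5 times the count. Of the rest, 37 counts fell, 6 rose and 2 share differences changed sign. A kept sign says nothing of size: at 100000 bp the read shares were 0.301% in 4T1 and 0.296% in Eph4-ev. With a threshold of 100000 bp the 4T1 minus Eph4-ev difference in the share of detected circRNAs was -0.0741 percentage points and the B16F10 minus Melan-a difference in read share 0.0105. Thinned to equal depth, 5 circles were higher and 1 lower in 4T1, 1 host was lower in 4T1, and 3 circles were lower in B16F10. With a minimum count of 10, 3 circles and 2 hosts were lower in 4T1, 3 circles were lower in B16F10, and 6 mammary hosts moved apart from the gene as a whole. With no filter, 2 hosts were higher in B16F10 and edgeR called 0 melanocyte hosts as moving apart (16 at an unadjusted p under 0.05). DESeq2 called 8 differences between lineages. The cause of these changes was not tested, save that thinning and the higher minimum leave fewer circles to test. Leaving out 1 library gave read share differences of 0.525 to 0.972 and -0.810 to -0.544, and detected share differences of 0.197 to 0.554 and -0.721 to -0.338. It gave 2 to 8 circles higher and 0 to 4 lower in 4T1, 5 to 9 hosts higher and 1 to 4 lower, 2 to 3 circles higher and 2 to 7 lower in B16F10, 1 host higher and 3 to 7 lower, 2 to 5 differences between lineages, and 1 to 5 and 0 to 2 hosts that moved apart. The numbers of the libraries do not pair them: deviations of same-numbered libraries correlated at 0.029, -0.039 and 0.016 in the mammary and 0.067, -0.057 and 0.014 in the melanocyte lines. With the replicate block, 8 circles were higher and 4 lower in 4T1, 8 hosts higher and 3 lower, 3 circles higher and 4 lower in B16F10, 2 hosts higher and 5 lower, 4 differed between lineages, and 1 mammary and 1 melanocyte host moved apart. Of the calls named, the block gave an adjusted p of 0.0848 for Med13l exons 2 to 4, 0.284 for Arhgap10, 0.207 for Eri3, 0.202 for Zeb1 and 0.0642 for Tasp1 exons 2 to 10, and 0.166 and 0.0799 for Rptor and Spata5 set against the gene as a whole; it gave 0.0309 for Tasp1 exons 2 to 8 in the mammary lines. The Ube2cbp circle changed sign, with an adjusted p of at least 0.801 where it did: 0.22 with total reads alone, 0.13 with a minimum count of 10, 0.052 with the block, 0.092 thinned and, with 1 library left out, -0.29 to 0.17 (0.01 without 4T1 replicate 3, 0.17 without Eph4-ev replicate 1).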
